A study of Mus musculus with 33 samples.

Results

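Monocytes that had entered the liver of mice with a manipulated small intestine were compared with monocytes that had entered the liver of non-manipulated mice. All liver libraries of the series were taken, namely 2 of manipulated and 3 of non-manipulated recipients, which are 5 of 33 libraries in all. For each of them the 57 panel genes with a value in every library were described, out of 67 genes listed. Donor cells were bone marrow monocytes of wild-type C57BL/6 mice, and recipients were C57BL/6 mice that lack CCR2 (CCR2-/-), so that their own supply of blood monocytes was reduced. Manipulated recipients had undergone surgical handling of the small intestine, under ketamine and xylazine, 1 day before the transfer, with Novalgin in the drinking water, whereas non-manipulated recipients had no surgery. No library came from sham-operated recipients, so in these libraries inflammation of the gut cannot be told apart from surgery or from the drug. Donor cells were recovered 1 day after transfer, and 100 cells were sorted per library from liver digested with collagenase. For donor cells of small intestine the paper gives a gate of CD11b, CD64 and a low to intermediate level of CD11c. When it counts donor monocytes in liver, it names CD64, CD11b and Ly6C. It does not spell out the gate of the liver cells sorted for transcripts. Therefore Itgax, which encodes CD11c, and Ly6c1 may not be independent of the sort. The comparison asks whether inflammation of the gut changes monocytes in a distant organ.

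Classical monocytes leave the bone marrow through CCR2 and enter tissues, where they lose Ly6C, gain MHC class II and can become macrophages. The liver receives the blood of the gut through the portal vein, and its resident macrophages, the Kupffer cells, can be replaced by incoming monocytes. Interferons induce a known set of genes in such cells, among them Siglec1 and the chemokines Cxcl9, Cxcl10 and Cxcl11.

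Transcripts were read with nCounter, in which each transcript is counted as a barcode after hybridisation, here after PCR pre-amplification. Totals over the liver libraries lay between 1284791 and 1458379 counts, and all 57 genes were above the background of the negative control probes in each liver library. That background, the mean plus 2 SD of those probes, was between 33.85 and 43.94 counts. Counts of the house-keeping gene Rpl19 were 6359 and 3982 in manipulated liver, against 1744, 3347 and 6050 in non-manipulated liver. Levels are given as log2 of the scaled count plus 1, and a difference is that of manipulated minus non-manipulated means, with its standard error. Of 8 monocyte markers on a fixed list 6 were measured, and their summed scaled counts were 290269 to 322826 in manipulated and 275932 to 287389 in non-manipulated liver. No marker of Kupffer cells, neutrophils, lymphocytes, hepatocytes or liver endothelial cells could be checked, because 0 of those listed had a value in every library. Of 5 dendritic cell markers only Ccr7 was measured.

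The libraries of manipulated liver had a mean absolute difference of 1.18 over 57 genes, and those of non-manipulated liver differed by 1.02 to 1.26 from each other. The closest pair, manipulated library 2 and non-manipulated library 2, differed by 0.72. Manipulated library 1 differed from the non-manipulated libraries by 1.22 to 1.56. The median gap between the manipulated libraries was 0.55, beside a median range of 1.28 over the 3 non-manipulated libraries. A range over 3 libraries tends to be wider than a gap between 2, so these medians are not directly comparable. For 38 genes the manipulated libraries lay within a log2 distance of 1, and for 11 genes they were more than 2 apart, with library 2 the higher in all 11, so that results on these genes are given for each library.

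No gene passed an adjusted threshold of 0.05 in liver with limma (0 of 57, 0%), and the smallest adjusted p was 0.245. At an unadjusted threshold of 0.05 limma gave 6 genes (10.5%), namely Ccr7, Il10, Chil3, Ccl22, H2-Ab1 and Itgax. edgeR called 0 genes, with 3 at the unadjusted threshold, and DESeq2 called 2 genes lower, Ccr7 and Il10. Omission of non-manipulated library 3 left 1 gene past the threshold, Chil3, at a difference of 2.45 and an adjusted p of 0.0193 (limma). With 2 against 3 libraries the test detects only changes that are large beside the pooled spread, and the 95% interval reached 1 log2 unit or more in at least 1 direction for 53 of 57 genes. Libraries of both groups did not overlap for 5 genes that were higher (8.77%) and 7 genes that were lower (12.3%) in manipulated liver. With 2 against 3 libraries such separation is frequent also where nothing changed, so a lack of overlap is a description and not a test.

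**Figure D1:**
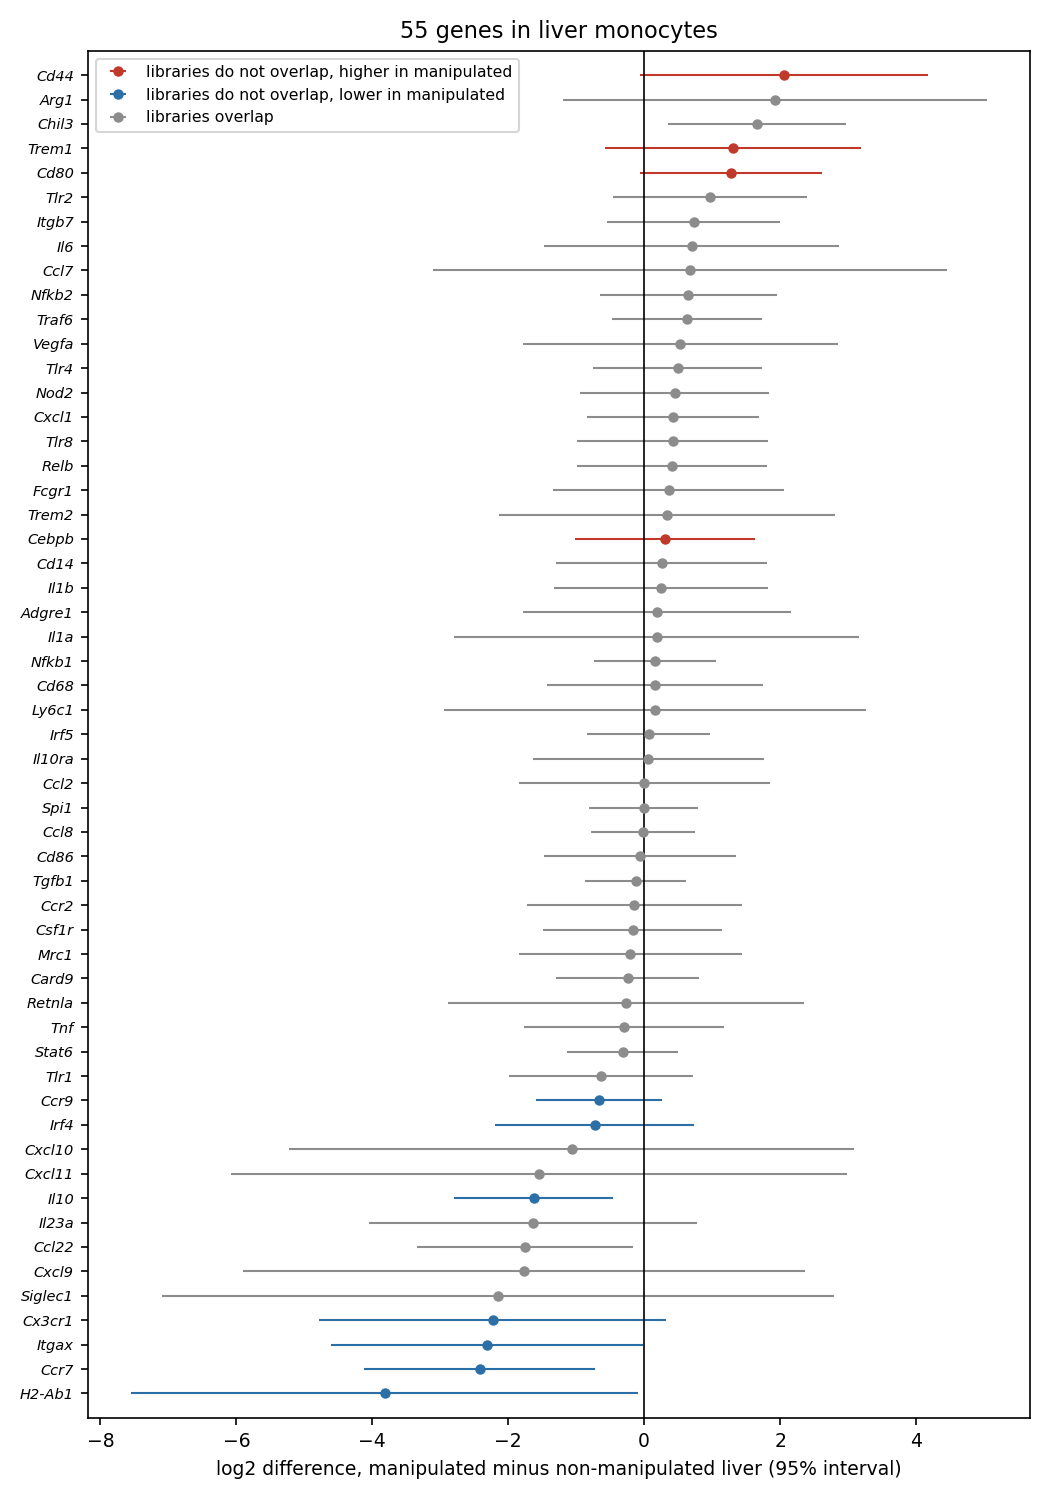
Log2 difference between manipulated and non-manipulated liver (x axis) for 55 of 57 genes (y axis), with the 95% interval of the limma fit. Red and blue points mark genes whose libraries did not overlap, and grey points mark genes whose libraries overlapped. H2-Ab1 is the lowest at -3.82 and Cd44 the highest at 2.06.

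The largest negative difference of the panel was that of H2-Ab1. It encodes the beta chain of the MHC class II molecule I-A, which presents peptides to CD4 T cells. Its level was 9.51 and 14.99 in manipulated liver, against 16.51, 15.89 and 15.81 in non-manipulated liver. Both manipulated libraries were below every non-manipulated library, but library 1 was much the lower. The difference was -3.82 ± 1.81 (adjusted p = 0.436, limma), and it was -1.08 without manipulated library 1 and -6.56 without manipulated library 2.

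Ccr7 encodes the receptor that guides dendritic cells to lymph nodes, and was measured with a probe to positions 756 to 855 of its transcript. It was at 9.40 and 9.77 in manipulated liver and at 14.12, 10.54 and 11.35 in non-manipulated liver. The manipulated libraries were close together and below all others, and non-manipulated library 1 stood highest. The difference of -2.42 ± 0.83 (adjusted p = 0.245, limma) was -1.36 without non-manipulated library 1. As a marker of dendritic cells, Ccr7 had summed scaled counts of 673 to 874 in manipulated and 1490 to 17800 in non-manipulated liver, and a part of dendritic cells in this difference was not tested. Donor cells were enriched monocytes, and no other dendritic cell marker on the list was measured.

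Ccl22, a chemokine that attracts cells bearing CCR4, was at 10.28 and 8.67 in manipulated liver, against 11.84, 10.20 and 11.64 in non-manipulated liver. Manipulated library 1 lay just above non-manipulated library 2, so the groups overlapped, and the difference was -1.75 ± 0.77 (adjusted p = 0.436, limma), and -0.95 without manipulated library 2. The costimulatory ligand Cd80 went the other way, with 14.92 and 14.60 in manipulated liver against 14.20, 13.10 and 13.15 in non-manipulated liver. Its libraries did not overlap, at a difference of 1.28 ± 0.65 (adjusted p = 0.436, limma). Cd86, the related ligand, differed by -0.06. Thus of 3 measured genes of antigen presentation and costimulation 1 was lower and 1 was higher without overlap, and 0 passed the test. Over all 57 genes 12.3% were lower and 8.77% were higher without overlap.

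Il10 encodes an anti-inflammatory cytokine, and its probe covered positions 986 to 1085 of the transcript. Levels were 10.94 and 11.21 in manipulated liver, against 12.34, 13.84 and 11.93 in non-manipulated liver. Both manipulated libraries were below every non-manipulated library and close to each other. The difference was -1.63 ± 0.57, or 3.09-fold lower (adjusted p = 0.245, limma), and -1.06 without non-manipulated library 2. DESeq2 gave an adjusted p of 0.0301. The other genes of regulation and alternative activation did not share this direction, since 5 of 10 members had a difference above 0 and 5 below, with a median of -0.03 beside 0.06 over all 57 genes. Among them Chil3, which encodes the chitinase-like protein Ym1, was at 16.77 and 15.77 in manipulated liver against 14.38, 13.25 and 16.19 in non-manipulated liver. Non-manipulated library 3 lay between the manipulated libraries, and the difference was 1.66 ± 0.63 (adjusted p = 0.28, limma), and 0.98 without non-manipulated library 2. Arg1, which encodes arginase 1, was at 12.90 and 13.11 in manipulated liver against 10.72, 13.36 and 9.16 in non-manipulated liver. Its non-manipulated libraries spread over more than 4 log2 units and enclosed both manipulated ones.

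Adhesion and migration receptors had differences in both directions, none past the threshold. Cd44 encodes the hyaluronan receptor that leukocytes use to adhere in vessels, those of the liver included. It was at 12.49 and 11.54 in manipulated liver, against 9.94, 9.31 and 10.61 in non-manipulated liver. Every manipulated library was above every non-manipulated one, and the difference of 2.06 ± 1.03 (adjusted p = 0.436, limma) was the largest positive one of the panel. It was the only gene at an unadjusted threshold of 0.05 in the methods' t-test, which called 0 genes after Benjamini-Hochberg adjustment.

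The fractalkine receptor Cx3cr1 was at 6.18 and 9.08 in manipulated liver, against 9.30, 9.55 and 10.73 in non-manipulated liver. Both manipulated libraries were lower, at a difference of -2.23 ± 1.24 (adjusted p = 0.528, limma) that was -0.78 without manipulated library 1 and -3.68 without manipulated library 2. Itgax was at 8.21 and 10.32 in manipulated liver and at 12.33, 11.22 and 11.19 in non-manipulated liver. It was likewise lower in both libraries, by -2.31 ± 1.11 (adjusted p = 0.436, limma), and by -1.26 without manipulated library 1 and -3.37 without manipulated library 2. The gut homing receptor Ccr9 was at 7.36 and 6.79 in manipulated liver against 8.23, 7.54 and 7.45 in non-manipulated liver, a difference of -0.66. Thus 2 of 8 measured homing and adhesion receptors were higher and 4 were lower without overlap, beside 8.77% and 12.3% of all 57 genes, and 0 passed the test. Ccr2, the receptor that brings monocytes out of the marrow, differed by -0.14, and the integrin chain Itgb7 by 0.73, with overlap for both.

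**Figure D2:**
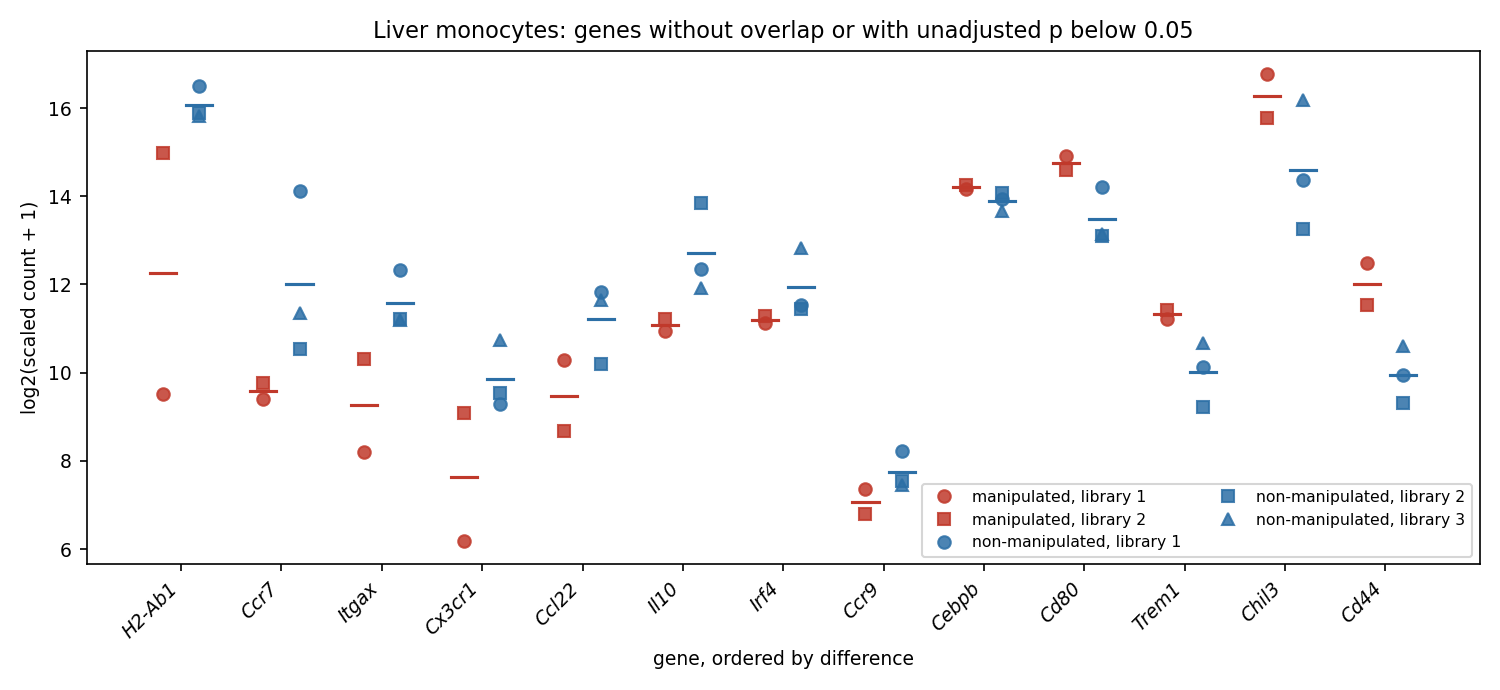
Level of 13 genes in each liver library, as log2 of the scaled count plus 1 (y axis), with manipulated libraries in red left of non-manipulated libraries in blue and the mean of each group as a bar. Genes had no overlap between the groups or an unadjusted p below 0.05. The manipulated libraries lie close together for Ccr7 (9.40 and 9.77) and Il10 (10.94 and 11.21) and far apart for H2-Ab1 (9.51 and 14.99).

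Genes that mark Ly6C-high monocytes were, on the median, above the panel. Their 6 measured members had a median difference of 1.11, beside 0.06 over all 57 genes. Of the 6 differences 5 were above 0, beside 31 of 57 in the panel. The median was 1.06 in manipulated library 1 and 1.09 in manipulated library 2, each set against the non-manipulated mean. Among them 3 genes, Cd44 and Trem1 included, were higher without overlap, beside 8.77% of all 57 genes, whereas 0 passed the test. Trem1, a receptor that amplifies inflammatory signals in myeloid cells, was at 11.21 and 11.43 in manipulated liver, against 10.12, 9.23 and 10.68 in non-manipulated liver. The manipulated libraries were above all others, at a difference of 1.31 ± 0.92 (adjusted p = 0.713, limma). Ly6c1 was at 10.25 and 11.94 in manipulated liver and at 9.47, 11.42 and 11.90 in non-manipulated liver, with full overlap. Genes of mature macrophages had a median difference of 0.00 over 9 measured members. Of these 1, Cx3cr1, was lower without overlap, beside 12.3% of all 57 genes. In bulk samples of this kind fewer cells of a type and less RNA per cell cannot be told apart.

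Pattern recognition genes had a median difference of 0.45 over 9 members, beside 0.06 over all 57 genes. Of these members 7 were above 0, beside 31 of 57 in the panel. Only 1, Trem1, was higher without overlap, beside 8.77% of all 57 genes. Tlr2, a receptor of bacterial lipoproteins, was at 6.30 and 7.67 in manipulated liver against 5.85, 6.63 and 5.57 in non-manipulated liver, which overlapped. Transcription factors had a median difference of 0.06 over 9 members. Irf4, which takes part in dendritic cell and macrophage differentiation, was at 11.12 and 11.29 in manipulated liver against 11.54, 11.44 and 12.82 in non-manipulated liver. It was lower without overlap, whereas Cebpb, a myeloid factor, was higher without overlap, at 14.16 and 14.25 in manipulated liver against 13.93, 14.08 and 13.67 in non-manipulated liver. Gaps between the groups were small for both, at differences of -0.73 and 0.31.

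Pro-inflammatory cytokines and effectors overlapped between the groups in all 5 measured members, with a median difference of 0.19. Il1b was at 15.95 in both manipulated libraries, against 15.99, 16.32 and 14.81 in non-manipulated liver. Il1a was at 14.73 and 14.82 in manipulated liver, against 14.56, 15.30 and 13.90 in non-manipulated liver. For both interleukin-1 genes the manipulated libraries lay inside the range of the others.

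Il6, which encodes a pyrogenic cytokine, was at 7.08 and 7.97 in manipulated liver against 7.33, 7.23 and 5.92 in non-manipulated liver. Il23a, the p19 chain of interleukin-23, was at 5.70 and 6.20 in manipulated liver, against 9.91, 5.76 and 7.09 in non-manipulated liver. Non-manipulated library 1 alone was high. Tnf was at 13.57 and 15.82 in manipulated liver against 14.37, 15.43 and 15.17 in non-manipulated liver, so that the manipulated libraries enclosed the others.

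Chemokine genes overlapped in all 7 measured members of their list, with a median difference of -0.01. Among those that attract monocytes, Ccl2 was at 10.36 and 13.53 in manipulated liver, against 10.10, 13.46 and 12.27 in non-manipulated liver. Ccl7 was at 7.56 and 11.28 in manipulated liver, against 5.63, 13.82 and 6.78 in non-manipulated liver. In both groups library 2 held the most of both chemokines. Ccl8 was even, at 6.63 and 6.65 in manipulated liver against 6.84, 6.42 and 6.69 in non-manipulated liver. The neutrophil attractant Cxcl1 was at 8.47 and 7.47 in manipulated liver, against 7.58, 7.61 and 7.44 in non-manipulated liver, with manipulated library 1 alone above the rest.

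The widest gaps between the manipulated libraries, of more than 4 log2 units, included those of Cxcl11, H2-Ab1, Cxcl9 and Siglec1, and gaps of Ccl7, Ccl2 and Cx3cr1 were 3.71, 3.17 and 2.90. Cxcl9 encodes a chemokine that attracts activated T cells and was measured at positions 41 to 140 of its transcript. It was at 6.49 in manipulated library 1 and at 11.96 in manipulated library 2, against 12.07, 11.60 and 9.32 in non-manipulated liver. Cxcl11, a further ligand of the same receptor, was at 5.63 and 11.36 in manipulated liver, against 10.45, 12.55 and 7.11 in non-manipulated liver. Library 1 was below every non-manipulated library for both genes, while library 2 lay within their range.

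Siglec1, which encodes the sialic acid receptor CD169, was at 7.15 and 12.07 in manipulated liver, against 11.25, 13.12 and 10.88 in non-manipulated liver. Cxcl10 was at 13.31 and 15.77 in manipulated liver, against 15.73, 16.77 and 14.33 in non-manipulated liver. For both genes library 1 was the lowest of the 5 liver libraries, and library 2 was within the non-manipulated range. The group difference of Cxcl9 was -1.77 (adjusted p = 0.968, limma) and describes neither library. Of the 10 genes with the widest gap, 8 were below the non-manipulated range in library 1, and 5 were within it in library 2. Interferon genes were singled out after the values were seen, without a fixed list.

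**Figure D3:**
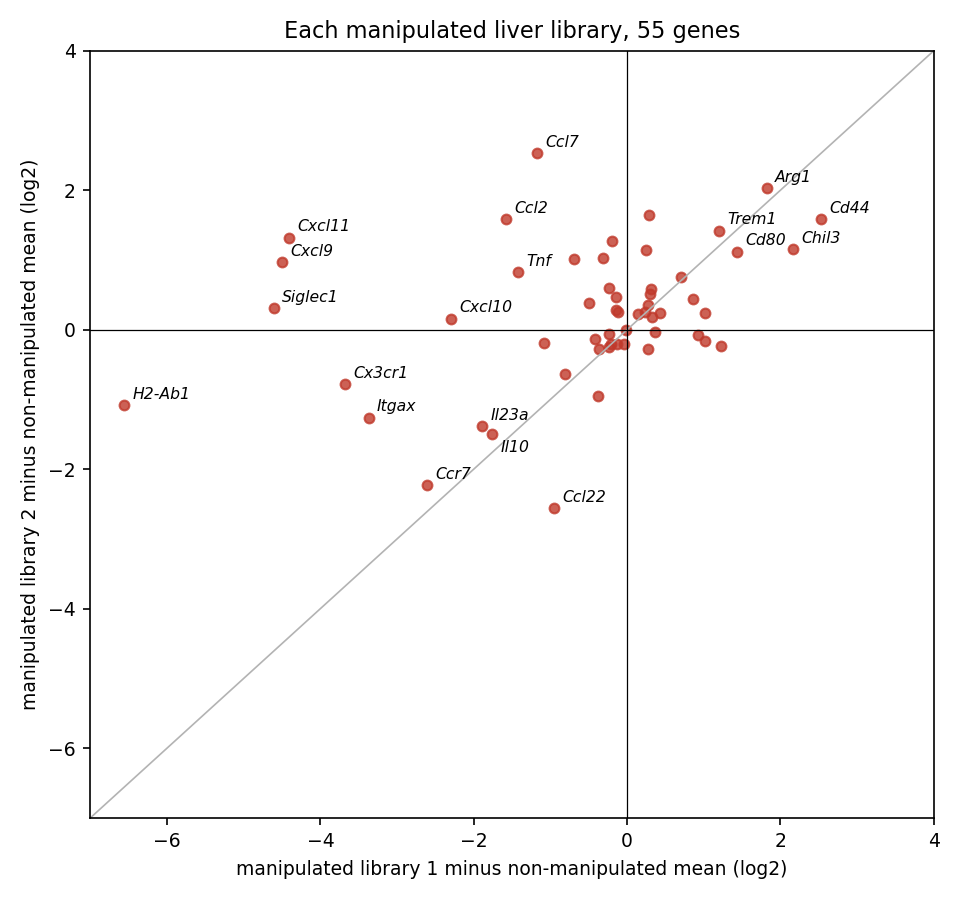
Level of 55 of 57 genes in manipulated library 1 (x axis) and in manipulated library 2 (y axis), each minus the mean of the 3 non-manipulated liver libraries, in log2 units. The grey line marks equal values. Cxcl9, Cxcl11 and Siglec1 lie far left of it, Ccr7 and Il10 lie close to it below 0, and Cd44, Chil3, Trem1 and Cd80 lie above 0 on both axes.

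Some libraries with the same number varied together between organs. Over 57 genes, the difference of library 2 minus library 1 in manipulated liver correlated with that in manipulated spleen (Pearson r = 0.82, Spearman rho = 0.67) and in manipulated bone marrow (BM) (r = 0.68, rho = 0.48), but was inverse to that in manipulated small intestine (r = -0.34, rho = -0.41). These are correlations across genes, which are not independent replicates. The labels number mice within a group and do not say whether a number is the same mouse in different organs. In non-manipulated recipients the deviations of liver library 2 correlated with those of spleen library 2 (r = 0.63) and of BM library 2 (r = 0.55), those of liver library 3 with spleen library 3 (r = 0.71), and those of liver library 1 with spleen library 1 at 0.17. The other same-numbered pairs of liver and BM were no closer than unmatched ones. Liver library 1 correlated with BM library 1 at -0.04, and liver library 3 with BM library 3 at 0.32, beside 0.40 with BM library 1 and 0.48 with spleen library 1. With small intestine libraries 1 to 3, liver libraries 2 and 3 correlated with the same number at 0.30 and 0.40, and liver library 1 at -0.04. Unmatched pairs of liver and small intestine lay between -0.43 and 0.11. Manipulated spleen held Cxcl9 at 6.26, 13.15 and 5.89, against 10.78, 12.86 and 8.15 in non-manipulated spleen. Manipulated BM held it at 7.27, 11.97 and 5.74, against 11.16, 14.10 and 10.83 in non-manipulated BM. In each of these manipulated groups library 2 was the highest, as in liver, and manipulated spleen and BM had 2 low libraries each.

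**Figure D4:**
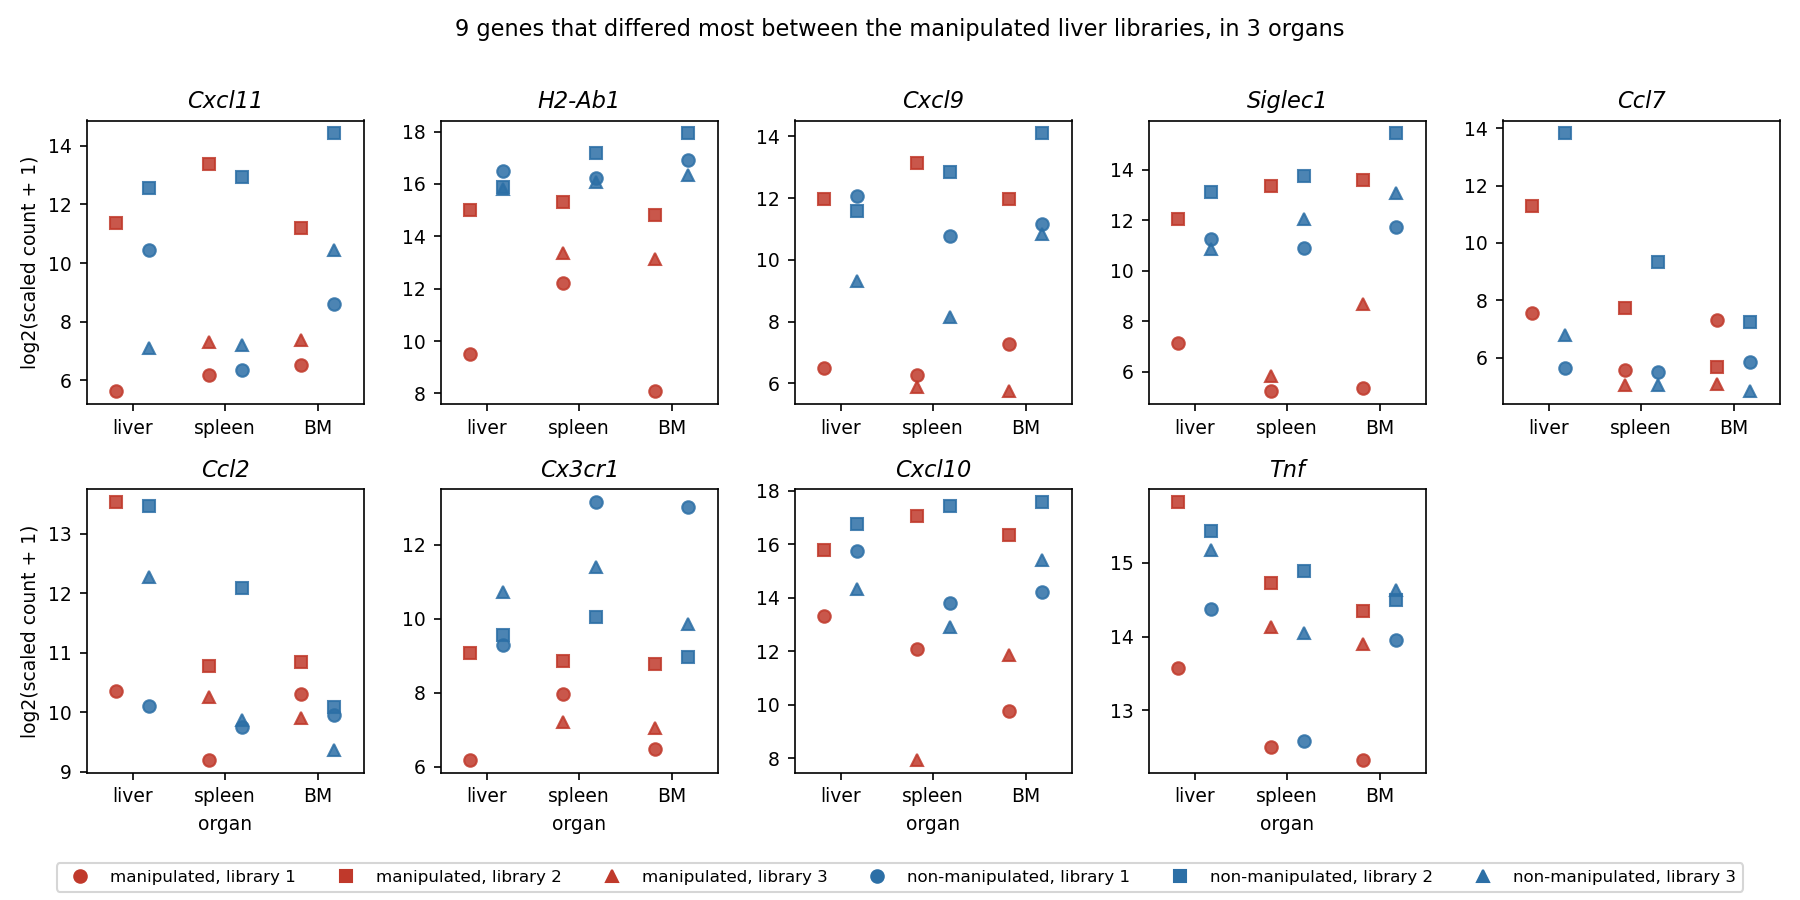
Levels of 9 of the 10 genes with the widest gap between the manipulated liver libraries (y axes, log2 of the scaled count plus 1) in liver, spleen and BM, with manipulated libraries in red left of non-manipulated libraries in blue and a symbol for each library number. Library 2 (squares) was the highest manipulated library in all 3 organs for Cxcl9, Cxcl11, Siglec1 and Cxcl10, and Ccl7 was high in liver library 2 of both conditions (11.28 and 13.82).

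H2-Ab1, Itgax and Cx3cr1 were also lower on the mean in spleen and BM. H2-Ab1 differed by -2.87 ± 1.62 in spleen and by -5.06 ± 1.62 in BM. Itgax differed by -3.28 ± 0.99 in spleen and -3.83 ± 0.99 in BM, and Cx3cr1 by -3.52 ± 1.11 and -3.18 ± 1.11. With limma 0 of 57 genes passed in spleen (0%) and 1 in BM (1.75%), which was Itgax. The change in liver minus that in spleen was -0.95 ± 2.43 for H2-Ab1, with a 95% interval from -5.95 to 4.05, so that sizeable differences in either direction were within the error. For Ccr7 the change in liver was lower than that in spleen by -2.79 ± 1.11 (adjusted p = 0.906, limma) and lower than that in BM by -3.18 ± 1.11 (adjusted p = 0.236, limma). The change of Il10 in liver minus that in BM was -2.22 ± 0.77 (adjusted p = 0.236, limma). In spleen Il10 was also lower on the mean, by -1.06 ± 0.51 (adjusted p = 0.406, limma). Its change in liver minus that in spleen was -0.565 ± 0.765 (adjusted p = 0.906, limma). Over all genes 0 of 57 (0%) differed in their change between liver and spleen, with 1 at an unadjusted threshold of 0.05, and 0 of 57 (0%) between liver and BM, with 2. DESeq2 called 0 genes against spleen and 3 lower against BM, namely Ccr7, Il10 and Il1a, while edgeR called 0 in both, with 1 gene against spleen and 4 against BM at the unadjusted threshold.

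In small intestine, the manipulated organ itself, limma called 19 of 57 genes (33.3%), 11 higher and 8 lower. For the 11 higher genes the median difference was 0.42 in liver and 3.73 in small intestine, and for the 8 lower genes it was -0.76 in liver and -2.75 in small intestine. In liver 4 of the 19 (21.1%), Cd80, Trem1, Cx3cr1 and Itgax, had no overlap in the same direction, and 0 passed the test. Il10, also among the 19, had no overlap in the opposite direction. Over the panel 5 of 57 genes (8.77%) were higher and 7 (12.3%) were lower without overlap, 12 (21.1%) in either direction. The 4 of 19 were counted only in the direction of small intestine, so their share is not comparable with that of 12 of 57. The change itself differed between the organs for 3 genes (5.26%), Il10, Cxcl1 and Il23a, all lower in liver, and 11 genes had an unadjusted p below 0.05.

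Il10 differed in opposite directions. In small intestine it was at 13.83, 14.30, 14.03, 13.45 and 13.56 in manipulated recipients, against 12.26, 11.32, 11.95 and 12.30 in non-manipulated recipients. In liver both manipulated libraries were lower than all others, whereas here all 5 were higher. The change in liver minus that in small intestine was -3.50 ± 0.71 (adjusted p = 0.00243, limma). It was -2.94 to -3.89 when single libraries of either organ were left out, and stayed past the threshold in each.

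Cxcl1 was at 11.48, 11.06, 12.66, 12.12 and 11.48 in manipulated small intestine, against 7.34, 8.10, 7.99 and 8.70 in non-manipulated small intestine. The difference was 0.42 ± 0.62 in liver and 3.73 ± 0.45 in small intestine, and these changes differed by -3.30 ± 0.77 (adjusted p = 0.00624, limma). Il23a was at 9.28, 10.41, 11.15, 12.87 and 7.49 in manipulated small intestine, against 5.83, 6.53, 6.15 and 7.10 in non-manipulated small intestine. The groups overlapped in liver and did not overlap in small intestine. Its changes differed by -5.47 ± 1.45 (adjusted p = 0.0174, limma), but this call was lost without manipulated liver library 1 (-5.22, adjusted p = 0.121) or without non-manipulated liver library 1 (-4.31, adjusted p = 0.0632). It was also lost with series matrix values (-5.66, adjusted p = 0.0549) and with only the 4 compared groups in the limma fit (-5.47, adjusted p = 0.0715).

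Other inflammatory genes had a lower change in liver that did not pass after adjustment. The differences of the changes were -6.96 ± 2.28 for Ccl7 (adjusted p = 0.066, limma) and -3.94 ± 1.30 for Il6 (adjusted p = 0.066, limma). Arg1, Il1a, Ccl2 and Tnf followed, at -4.51, -3.73, -2.64 and -2.22. With only the compared groups in the limma fit Il1a and Il6 passed, at adjusted p of 0.000307 and 0.0151, and with the library number as a fixed block they passed at 0.00948 and 0.0212. In the opposite direction, the change in liver was above that in small intestine for Ccr2 by 2.10 and for Itgb7 by 2.02, at adjusted p of 0.212 and 0.133 (limma). Without manipulated liver library 2 the count of lower genes was 6, with Ccl2, Ccl7 and Tnf added, and without non-manipulated liver library 3 it was 5, beside 2 higher genes, Chil3 and Itgb7. DESeq2 called 1 gene higher and 8 lower, and edgeR 5 lower. These tests treat libraries of different organs as independent.

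**Figure D5:**
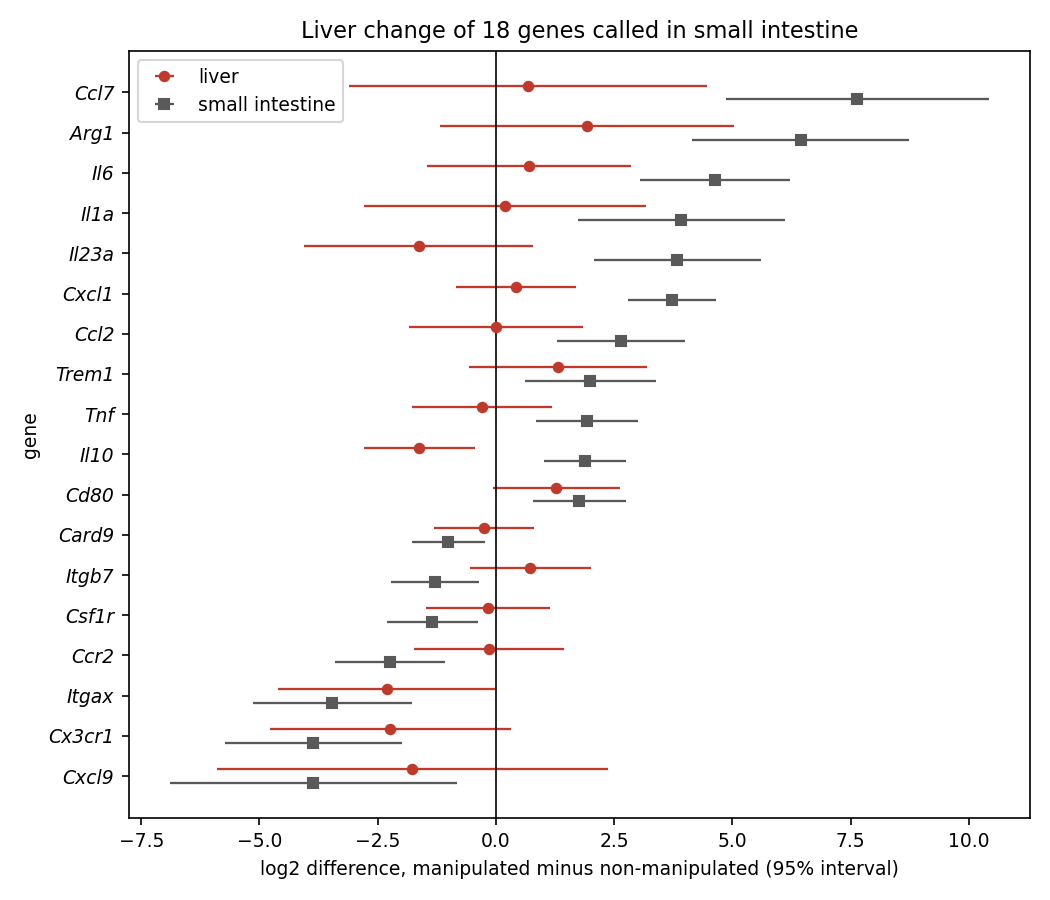
Log2 difference between manipulated and non-manipulated recipients (x axis) with the 95% interval of the limma fit, in liver (red) and in small intestine (grey), for 18 of the 19 genes called in small intestine (y axis). Il10 lies at -1.63 in liver and 1.88 in small intestine, and Cxcl1 at 0.42 and 3.73.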

How the data were processed

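Donor monocytes were counted by nCounter in 33 libraries, of which the 5 of liver were analysed here, with spleen, BM and small intestine for comparison. Per the methods, cDNA of 100 sorted cells was amplified by PCR with primers to the panel genes, so counts are not independent molecules. The authors deposited barcode counts in 15 libraries. In the other 18 they deposited a signal, namely counts multiplied by a constant per lane, and its reason is not given in the sources used here. In liver, manipulated library 2 and non-manipulated library 3 were multiplied, by 2 and 1.33. Division gave whole numbers for 1086 of 1086 values (tolerance 0.002). The deposited series matrix holds a score, the authors' scaled values, and was used as an alternative.

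Counts were divided by the geometric mean of Actb, Gapdh and Rpl19 and taken as log2 with a pseudocount of 1. Of 67 panel genes 57 had a value in every library, 8 had none and 2 were incomplete. Of 72 gene names 69 were matched to RefSeq by transcript and 3 by symbol. Limma 3.58.1 in R 4.3.3 was fitted to all 33 libraries in 11 groups, which share 1 estimate of the spread, with two-sided tests and Benjamini-Hochberg adjustment over 57 genes at a threshold of 0.05. Differences between organs were interaction contrasts. The script was tested on simulated data. Alternatives were edgeR 4.0.16, DESeq2 1.42.0, the methods' t-test, other scalings and omission of single libraries. Members and gene lists were chosen with earlier results of these data known. Genes named with values were those with an unadjusted p below 0.05 or no overlap, the 10 widest gaps between manipulated liver libraries, genes past the threshold in small intestine or between organs, and all cytokines and chemokines listed. Nothing says whether libraries are separate animals across organs, so p-values measure the spread between libraries. Values of 2 genes are not reported here and are left out of the figures, while counts and medians include them.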

Additional observations from a re-analysis of the deposited data

Results flagged for a closer look

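The change with manipulation differed between liver and small intestine, by a test of the difference itself (limma, interaction contrast), for 3 genes. The difference of the changes was -3.50 for Il10, -3.30 for Cxcl1 and -5.47 for Il23a, each lower in liver. Groups of 2 and 3 liver libraries are too small for a test of single outlying libraries, so none was made.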

How the results depend on the processing

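In liver the limma count stayed at 0 genes higher and 0 lower under each other scaling, pseudocount and background setting. Omission of single libraries gave 0 to 1 genes higher and 0 lower. DESeq2 called 2 lower, the methods' t-test gave 1 higher at an unadjusted threshold, and a comparison of only the libraries without a lane multiplier (manipulated library 1 against non-manipulated libraries 1 and 2) called 2 lower, Cxcl9 and H2-Ab1. The setting with only the multiplied libraries, 1 against 1 and with no test, turned Chil3 to -0.42. Another scaling moved the median difference of all genes by 0.13 (TMM factors), -0.14 (without Actb), -0.12 (without Gapdh), 0.27 (without Rpl19) and 0.38 (series matrix values).

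Genes without overlap were 5 higher and 7 lower. They were 10 higher and 4 lower without Rpl19, 10 higher with series matrix values, and 17 higher and 23 lower in the libraries without a multiplier, where fewer libraries have to be apart, and 1 against 1 multiplied library cannot overlap and was not counted. Omission of single libraries gave 6 to 15 higher and 8 to 17 lower, which can only add genes, since fewer libraries have to be apart. Under 9 other settings (TMM factors, total panel count, omission of Actb, Gapdh or Rpl19, series matrix values, background subtraction, and a pseudocount of 20 and the lane multiplier kept, which both leave the order of libraries as it is) 3 higher genes (Cd44, Cd80 and Trem1) and 4 lower genes (Ccr7, H2-Ab1, Il10 and Itgax) kept their libraries apart.

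Between liver and small intestine limma called 0 higher and 3 lower. Omission of single libraries gave 0 to 2 higher and 2 to 6 lower. The count of lower genes was 5 with edgeR and 8 with DESeq2, which called 1 higher, 0 in the libraries without a multiplier, where fewer libraries entered, and 4 with only the compared groups in the fit. Between liver and BM DESeq2 called 3 lower. Liver groups share only the numbers 1 and 2. The labels give them as mouse numbers within a group, without saying whether a number is the same mouse in different organs. With a replicate block the liver count stayed at 0, and that between liver and small intestine was 5 lower both with the number as a fixed term and with condition and number as a random term. For the remaining shifts the cause was not tested. Leave-one-out settings for libraries of small intestine, spleen and BM were chosen after seeing the data. Levels near 6 log2 units lie close to the background and limit small differences there.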
